A study of Mus musculus with 9 samples.

Results

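The 3 arrays of thymus at day 7 after irradiation were compared with the 3 arrays at day 4, which together are 6 of the 9 arrays of the series. The members were chosen by the time point in the sample titles, and every probe set of the arrays entered the comparison. Arrays were hybridised with RNA of thymic cells from female C57BL/6J mice aged 6-8 weeks, isolated with magnetic beads that remove cells carrying CD45, the surface protein of blood cells. The mice of both groups had received 550 cGy of sublethal total body irradiation from a cesium source and no transplant of blood-forming cells, and the 3 remaining arrays were of untreated mice. Several mice were pooled for each time point, and the labels do not say whether the 3 replicates of a group were separate pools, so the p-values below measure only the spread between these samples.

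The thymus is where T cells are made. Its stroma (epithelial cells, fibroblasts and blood vessels) supports developing T cells, called thymocytes, most of which are killed by radiation while much of the stroma survives. In the days that follow, the organ shrinks and then begins to refill from surviving or newly arrived progenitors, while stromal cells release factors that support the regrowth. Genes outside the usual lists of cell type markers were followed here through 53 lists of cellular programmes, such as DNA replication, stress responses, lipid synthesis and signalling pathways. Of 1204 genes on these lists 1128 were on the array under 1 symbol, and 977 of them were bright enough to be tested.

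The labels call the material non-hematopoietic stromal cells, and the data go against this for part of it. Ptprc, which encodes CD45, stood at log2 values of 12.25, 11.96 and 12.45 on the untreated arrays, at 4.18, 4.52 and 5.22 at day 4, and at 9.63, 9.26 and 9.64 at day 7. Its rise from day 4 to day 7 was 4.87, and 2.51 with its 2 probe sets averaged. Of 15 tested pan-leukocyte markers 6 rose and 1 fell (median 0.52, and -0.10 with arrays centred on stromal markers). Macrophage, B cell, dendritic cell and neutrophil lists held no rises with the deposited scaling (medians -0.42, -0.64, -0.18 and -0.79). The 1 tested marker of natural killer cells and 3 of 4 erythroid and platelet markers rose. The mean over 21 tested thymocyte markers lay between 3.69 and 3.94 on the day 4 arrays and between 6.86 and 6.95 on the day 7 arrays, against 9.27 to 9.75 on untreated arrays. Of these 21 markers 18 rose and none fell from day 4 to day 7, with a median difference of 3.33. Of 25 endothelial markers 18 rose and none fell, with a median of 1.92, although leaving out day 4 replicate 2 left 8 of them, day 7 replicate 1 left 11 and day 7 replicate 2 left 9. Fibroblast markers had a median of -0.45 and general epithelial markers one of -0.32. Once arrays were centred on the epithelial markers the fibroblast median was 0.01. The epithelial median was then 0.14, but this centring sets the mean difference of that same list to 0. That value therefore cannot show whether epithelial markers fell. The 7 fibroblast falls were 1 to 5 with any one of the 6 irradiated arrays left out. In bulk samples, fewer cells of a type and less RNA per cell cannot be told apart. The control probe sets for both ends of the actin (Actb) and Gapdh messages bear on RNA quality: the 3-prime minus 5-prime difference, which grows as RNA is shortened, was 3.13 ± 0.17 (SD, n = 3) at day 4 and 2.51 ± 0.21 at day 7 for Actb, and 1.37 ± 0.24 and 0.90 ± 0.21 for Gapdh (exact permutation p = 0.1 for each, two-sided, the smallest that 3 arrays against 3 allow). The part of these shifts in cell makeup and RNA quality in the results below was not tested.

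At day 7 the tissue carried higher levels of cell division genes, immediate early transcription factors, heat shock proteins and cholesterol synthesis enzymes than at day 4, and lower levels of secreted antimicrobial proteins. Complement, matrix protease and Notch pathway lists held more falls than rises with the deposited scaling but not with arrays centred on epithelial markers. Of 10937 genes tested 2991 (27.3%) differed at an adjusted p under 0.05, 1070 (9.78%) higher and 1921 (17.6%) lower at day 7. By at least 2-fold, 418 genes rose and 366 fell. The number of genes called was 1760 without day 7 replicate 2 and 1905 without day 4 replicate 2. The number lower was 1010 and 1139 without these 2 arrays, 1198 without day 4 replicate 1, 1266 without day 7 replicate 1 and 1279 without day 7 replicate 3. On 5655 genes (51.7%) the 3 arrays of one day did not overlap those of the other. All values are on the log2 scale, so that a difference of 1 is a 2-fold change, and the median difference over all tested genes was -0.10. The share of higher genes among those called depended on the scaling. It was 35.8% with the deposited values, 46.0% after quantile normalization and 47.5% with arrays centred on all tested genes, each with more falls than rises. With arrays centred on the epithelial markers it was 87.9% (2209 higher, 303 lower; median of all genes 0.36), and with arrays centred on 4 lists of stromal markers, which include the endothelial genes that rose, it was 4.5% (362 higher, 7681 lower; median -0.72). Medians and counts of the lists are therefore given below with the scalings that changed them most. For genes with several probe sets the brightest was used. Averaging them gave a difference smaller by over 1.5 times for some genes, with the value stated in brackets as the probe set mean. That value is a log2 difference, also where a fold stands before it. A fold given as a lower bound holds for the brightest probe set only. Among 1941 probe sets without a gene symbol, 358 (18.4%) were called, 162 higher and 196 lower.

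**Figure D1:**
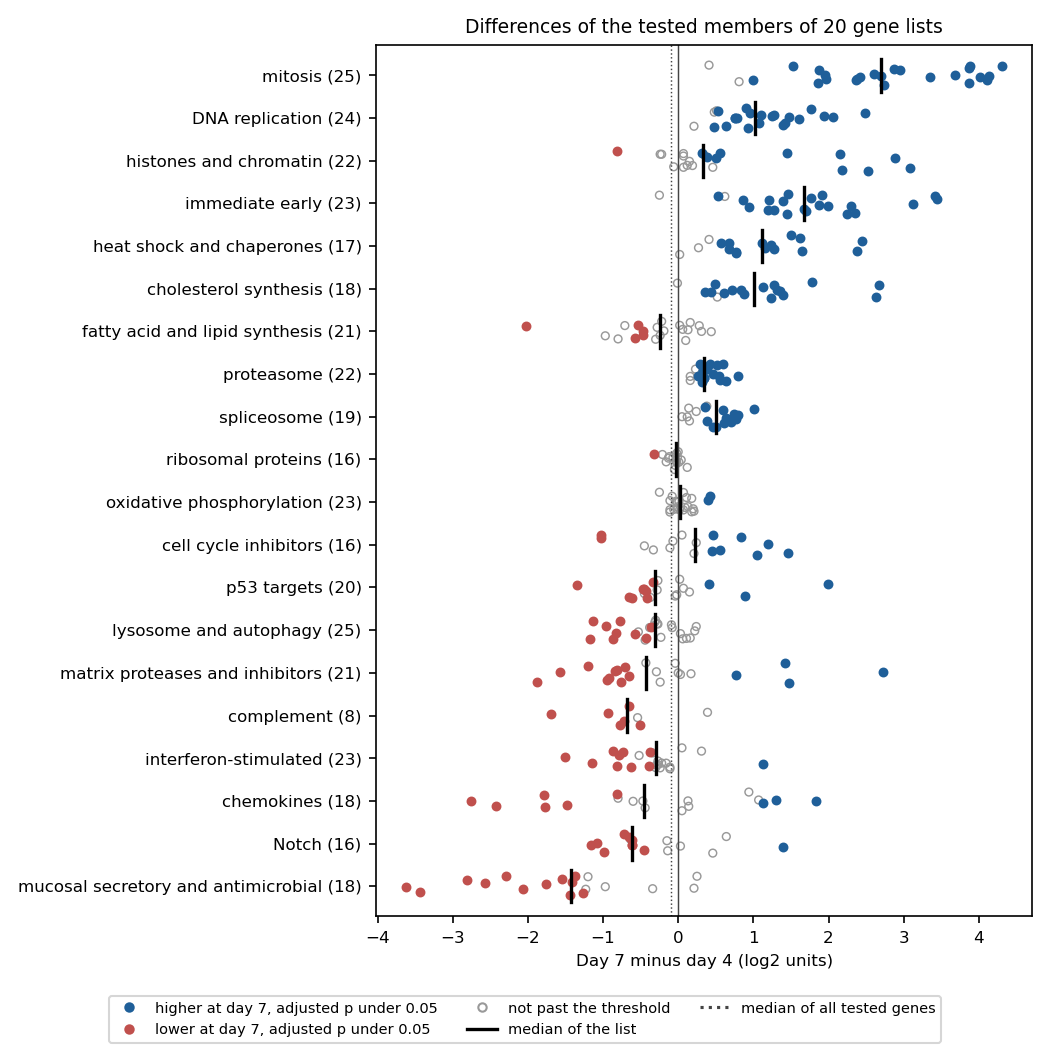
Day 7 minus day 4 in log2 units for each tested member of 20 gene lists, with the number of tested members in brackets. Filled points passed an adjusted p of 0.05, open points did not, thick bars are list medians, and the dotted line is the median of all tested genes at -0.10. The mitosis list lies farthest to the right (median 2.70) and the mucosal secretory list farthest to the left (median -1.43).

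Genes of cell division rose together. Of 25 tested mitosis genes 23 rose and none fell, with a median difference of 2.70 against -0.10 for all genes, and of 24 tested genes of DNA replication 21 rose and none fell, with a median of 1.01. Both medians kept their sign under all 4 scalings, between 2.08 and 3.16 for mitosis and between 0.40 and 1.48 for replication, although only 10 replication genes passed under stromal centring. A gene that lay under a log2 value of 4 on all 3 arrays of a day has only an upper limit there, and its change is given as a lower bound. With such genes at their bound the medians were 2.02 and 0.92.

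The promoters of these genes are shown because they share short elements known from genes of the late cell cycle. CCAAT is the letters bound by the factor NF-Y, and TTTGAA is the core of the cell cycle homology region, through which late cell cycle genes are repressed in resting cells. Both were searched on both strands in the 250 bases before the first listed start of each gene in the RefSeq promoter table (GRCm38.p6), which held 8842 of the tested genes. Of the 25 tested mitosis genes 21 had a promoter there. CCAAT was found in 16 of them (76.2%) and in 36.1% of all 8842 promoters, and TTTGAA was found in 8 (38.1%) and in 10.5% of all. Both were present in 7 mitosis promoters, and the matches overlapped in none of these. The 130 bases before the start are printed for Ube2c (chr2:164769799-164769928, plus strand), Kif11 (chr19:37376252-37376381, plus strand) and Cdc20 (chr4:118437344-118437473, minus strand), 5′ to 3′ along the gene, with matches to either element on either strand in capitals.
Ube2c: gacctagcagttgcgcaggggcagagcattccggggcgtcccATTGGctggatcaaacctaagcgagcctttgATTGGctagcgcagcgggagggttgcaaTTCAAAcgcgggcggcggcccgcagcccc
Kif11: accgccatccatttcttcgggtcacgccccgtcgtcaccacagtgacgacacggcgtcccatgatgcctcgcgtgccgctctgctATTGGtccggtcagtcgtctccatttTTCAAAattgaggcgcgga
Cdc20: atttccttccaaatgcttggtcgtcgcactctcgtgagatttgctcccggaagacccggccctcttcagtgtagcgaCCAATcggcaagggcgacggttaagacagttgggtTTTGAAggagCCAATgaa
A match is a description of the letters and not evidence of a bound factor.

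Ube2c, the ubiquitin-conjugating enzyme with which the anaphase-promoting complex marks cyclins for destruction, had the strongest call of the list. Its values were 3.48, 3.72 and 4.04 at day 4 and 7.99, 8.02 and 8.16 at day 7, a difference of 4.31 (SE 0.15, adjusted p = 5.0e-07) or 19.9-fold. All day 7 values stayed under the 9.59 to 9.89 of the untreated arrays. Top2a, the topoisomerase that untangles replicated DNA, went from 4.44, 4.63 and 4.84 to 8.65, 8.70 and 8.91 (17.3-fold; difference 4.11, probe set mean 1.40). Mki67, the proliferation antigen Ki-67, went from 4.95 ± 0.04 (SD, n = 3) to 9.09 ± 0.17 (17.6-fold). Ccnb2, a mitotic cyclin, was under the level of 4 on every day 4 array and reached 7.35, 7.38 and 7.79 at day 7, at least 11.4-fold higher. The spindle motor Kif11 was at least 5.29-fold higher (probe set mean 2.18) and the checkpoint kinase Bub1 at least 5.10-fold higher (probe set mean 2.03). Cdc20, the activator of the anaphase-promoting complex, rose 5.35-fold from 5.77, 6.40 and 5.93 to 8.49, 8.40 and 8.47. The chromosomal passenger Birc5 rose 14.6-fold and the spindle protein Nusap1 at least 9.88-fold (probe set mean 2.01). The 2 mitosis genes that did not pass the test, Plk1 and Ttk, were under the level on all 6 irradiated arrays.

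Replication genes moved by less. Mcm2, a subunit of the replicative helicase, went from 4.72, 4.79 and 4.80 to 6.60, 6.62 and 6.90, a difference of 1.94 (SE 0.15, adjusted p = 5.2e-05). Mcm5, another helicase subunit, rose by 2.06 (probe set mean 1.35) and Dut, which keeps uracil out of DNA, by 1.40 (probe set mean 0.68). In each of the 3 the arrays of the days stood apart with little spread inside a day. Among 22 tested genes of histones and chromatin 10 rose and 1 fell, with a median of 0.33 that was -0.28 under stromal centring (6 higher, 6 lower). The members that rose most keep methylation and packaging through division. Uhrf1, which brings the maintenance DNA methyltransferase to new DNA, stood at 5.15, 5.20 and 5.19 at day 4 and at 8.27, 8.22 and 8.29 at day 7 (8.44-fold, adjusted p = 1.3e-05). Hmgb2, a DNA-bending chromatin protein, rose by 2.89 and the histone methyltransferase Ezh2 by 2.18. The 1 gene that fell was Tet2, a DNA demethylase, which was chosen for mention after its value was seen and changed by -0.81.

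The thymocyte marker mean moved with the cell division lists on the same arrays. Mean mitosis values were 7.61 to 8.28 on the untreated arrays, 3.51 to 3.82 at day 4 and 6.23 to 6.48 at day 7, and thus had the same order of groups as the thymocyte markers. The largest rises among genes in no marker list included genes of lymphocytes. Trbv1, a segment of the T cell receptor beta chain, rose from 5.02, 5.29 and 5.81 to 10.76, 10.85 and 10.90 (44.2-fold; difference 5.46, probe set mean 2.74). Sh2d1a (the lymphocyte adaptor SAP) was at least 7.86-fold higher, Sla (an adaptor that tempers antigen receptor signals) at least 8.5-fold (probe set mean 1.55), Acap1 at least 10-fold (probe set mean 1.35), P2ry10 at least 7.23-fold and Endou at least 10.7-fold. All of these except Trbv1 were under the level of 4 on every day 4 array, and all 6 were higher on untreated arrays than on any day 7 array. How much of the rise in division genes came from thymocytes was not tested.

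**Figure D2:**
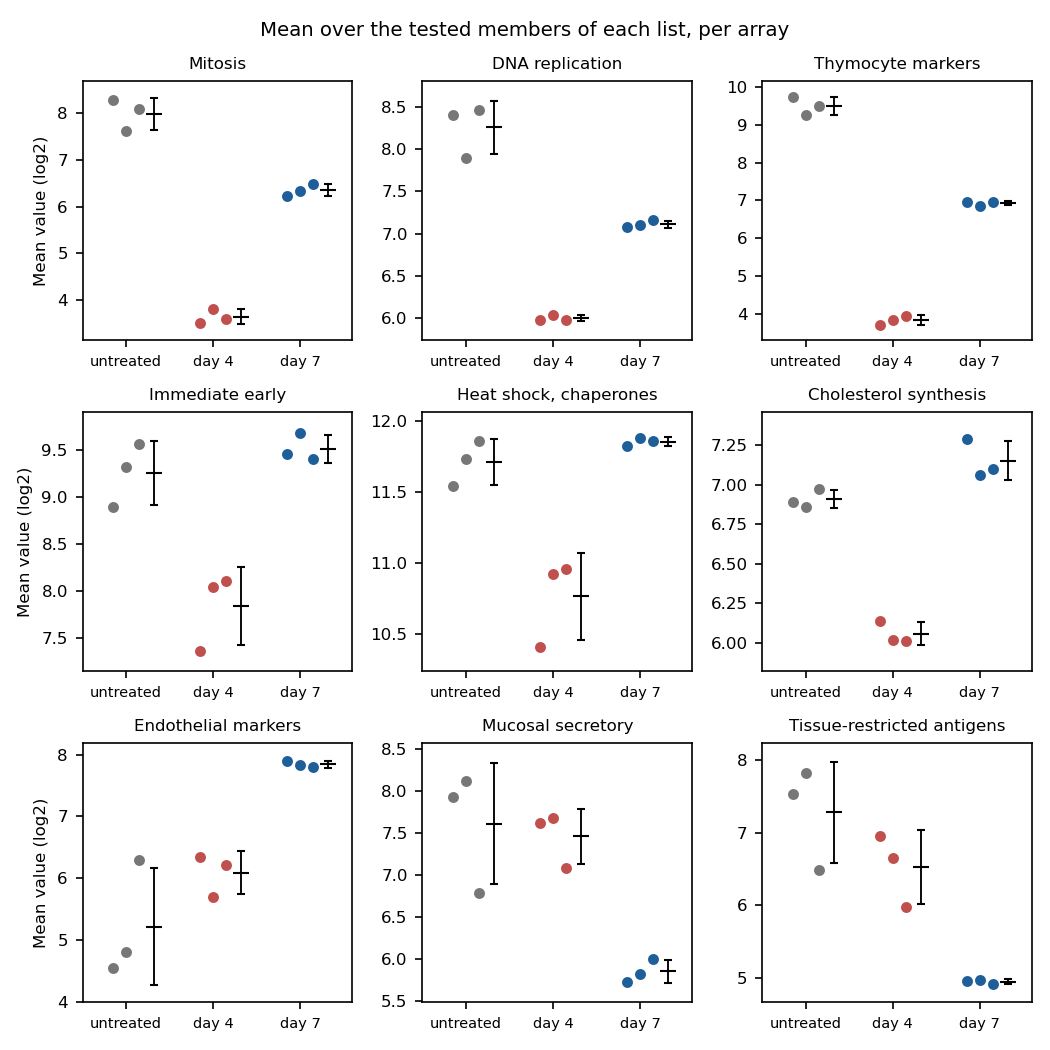
Mean log2 value over the tested members of 9 lists on each of the 9 arrays, with points for arrays and, beside them, the group mean and its SD. Mitosis, replication and thymocyte means are ordered untreated, day 7, day 4. The cholesterol list is higher at day 7 (7.06 to 7.29) than on untreated arrays (6.86 to 6.97), and day 4 replicate 1 lies lowest in the immediate early and heat shock panels.

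Immediate early genes, the transcription factors and their regulators that cells switch on within minutes of a stimulus, were mostly higher at day 7. Of 23 tested members 21 rose and none fell, with a median of 1.68 that stayed between 1.06 and 2.14 under the 4 scalings. Csrnp1, a nuclear factor of this class, went from 5.49, 5.88 and 5.63 to 7.46, 7.89 and 7.39 (difference 1.91, SE 0.16, adjusted p = 9.9e-05; probe set mean 0.96). Klf2, a zinc finger factor known from endothelium under flow and from mature T cells, rose by 2.35 and its relative Klf6 by 1.70. On untreated arrays the means of Csrnp1, Klf2 and Klf6 were 8.11, 9.33 and 10.78, against 7.58, 8.85 and 9.99 at day 7. All day 7 values of Csrnp1 and Klf6 lay below their untreated values, and those of Klf2 overlapped them. Nr4a1, an orphan nuclear receptor also induced by antigen receptor signals, was at 4.45, 5.67 and 5.91 at day 4 and at 8.64, 9.01 and 8.72 at day 7 (10.9-fold, adjusted p = 0.00076). Day 4 replicate 1 was the lowest array for this gene and for the mean of the list, at 7.36 against 8.04 and 8.11 for the other day 4 arrays and 9.40 to 9.68 at day 7. Without it the list's median was 1.30 and 18 of the 23 still rose. The list mean on untreated arrays, at 8.89, 9.32 and 9.56, overlapped the day 7 values.

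2 of these genes stood at day 7 above all untreated arrays too, a pattern for which they were picked after their values were seen. Fosb, a partner of Jun in the AP-1 factor, was at 5.50, 7.04 and 7.14 untreated, 3.16, 4.42 and 4.80 at day 4 and 7.35, 7.90 and 7.40 at day 7. Atf3, a stress-induced factor, was at 7.17, 8.74 and 8.95, then 5.31, 7.32 and 7.39, then 9.71, 10.13 and 9.54. The cytokine Il6 had the widest spread of the largest rises, with 3.96, 7.99 and 6.83 at day 4 and 10.01, 10.78 and 9.74 at day 7 (difference 3.91, SE 1.23, adjusted p = 0.044). It no longer passed without day 4 replicate 1 (2.76, limma adjusted p = 0.129), without day 4 replicate 3 or without any one of the day 7 arrays.

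Promoters of 2 immediate early genes are printed because the letters TGACG, part of the cyclic AMP response element, were frequent in this list. Searched as above, on both strands, TGACG was in 11 of the 19 members with a promoter (57.9%) and in 27.6% of all. Matches are in capitals for Nr4a1 (chr15:101266716-101266845, plus strand) and Fosb (chr7:19310046-19310175, minus strand).
Nr4a1: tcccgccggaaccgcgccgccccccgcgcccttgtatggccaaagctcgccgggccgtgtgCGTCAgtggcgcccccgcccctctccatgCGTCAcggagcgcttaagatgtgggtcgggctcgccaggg
Fosb: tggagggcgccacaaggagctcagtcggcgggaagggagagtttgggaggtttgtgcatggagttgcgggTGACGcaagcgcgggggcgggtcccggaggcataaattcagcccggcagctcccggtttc

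Heat shock proteins also rose. Of 17 tested chaperone genes 14 rose and none fell, with a median of 1.11 and a range of 0.49 to 1.57 over the 4 scalings (7 higher and 1 lower under stromal centring). Dnaja1, a co-chaperone of Hsp70, went from 10.40, 10.48 and 10.56 to 11.75, 11.94 and 11.59 (2.42-fold, adjusted p = 0.0003). Hsp90aa1, the inducible Hsp90, rose by 1.15 and the mitochondrial chaperonin Hspd1 by 1.5 (10.24, 10.20 and 10.54 to 11.85, 11.84 and 11.80). Dnaja1 (11.77 to 12.18) and Hspd1 (11.64 to 12.41) on untreated arrays overlapped their day 7 values. Hsp90aa1 at day 7 (14.17 to 14.33) lay below its untreated 14.38 to 14.65. The list mean was 11.54 to 11.86 on untreated arrays and 11.82 to 11.88 at day 7. Dnajb1, another Hsp70 partner, was at 9.53, 11.36 and 11.36 at day 4 and at 13.23, 13.17 and 13.18 at day 7, above the untreated 12.17 to 12.62. Here too day 4 replicate 1 was the lowest array, and the list mean was 10.41 on it against 10.92 and 10.96. The median without it was 0.98, with 14 genes still called. The unfolded protein response handles misfolded proteins of the endoplasmic reticulum, and its list had 27.3% called, as had all tested genes. Of its 22 genes 2 rose and 4 fell (1 rise without any irradiated array but day 4 replicate 3, and 2 falls without day 7 replicate 2 or 3), with a median of -0.06 that turned to 0.01 with arrays centred on all tested genes and to 0.40 with epithelial centring.

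The letters GAANNTTC, the core of the heat shock element in which N is any base, were found in 5 of the 15 heat shock promoters (33.3%) and in 4.7% of all. They read the same on both strands. 2 examples, Hspb1 (chr5:135887789-135887918, plus strand), a small heat shock protein that rose by 1.24, and Dnaja1 (chr4:40722338-40722467, plus strand), show where in the promoter the matches lie.
Hspb1: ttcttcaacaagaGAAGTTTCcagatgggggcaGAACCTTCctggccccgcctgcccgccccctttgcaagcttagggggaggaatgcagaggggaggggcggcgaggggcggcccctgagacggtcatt
Dnaja1: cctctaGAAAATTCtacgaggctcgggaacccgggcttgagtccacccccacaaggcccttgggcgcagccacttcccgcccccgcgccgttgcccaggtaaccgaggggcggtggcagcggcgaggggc

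Enzymes of cholesterol synthesis were higher at day 7. Of 18 tested genes of the sterol pathway 16 rose and none fell, with a median of 1.0 that stayed between 0.39 and 1.47 under the 4 scalings (8 higher and 1 lower under stromal centring). Idi1, which isomerises the isoprenoid building block of sterols, went from 6.20, 5.89 and 5.68 to 8.75, 8.70 and 8.34, a difference of 2.67 (SE 0.16, adjusted p = 1.0e-05). Msmo1, a sterol methyl oxidase, went from 6.58, 6.29 and 6.18 to 8.32, 8.09 and 7.99 (3.44-fold; difference 1.78, probe set mean 0.97) and lay above its untreated values of 7.12 to 7.39. Hmgcs1, which makes the substrate of HMG-CoA reductase, rose by 1.35. The 2 that did not pass were the pathway's master regulator Srebf2 (0.52, SE 0.20) and the sterol isomerase Ebp (-0.01, SE 0.17). The list mean was 6.86 to 6.97 on untreated arrays, 6.01 to 6.14 at day 4 and 7.06 to 7.29 at day 7. The part of cell makeup in the sterol rise was not tested.

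Of 21 tested genes of fatty acid and triglyceride synthesis none rose and 5 fell, which is 23.8% called against 27.3% of all genes, with a median of -0.24 that was 0.23 under epithelial centring (2 higher, 1 lower). Gpam, which starts glycerolipid synthesis, changed by -0.57 (probe set mean -0.29), and Dgat2, which makes triglycerides, changed by -2.02 (probe set mean -1.29) from 7.05, 6.62 and 6.17 to 4.27, 4.94 and 4.58. Acaca, the first enzyme of fatty acid synthesis, changed by -0.47 (probe set mean -0.23) and did not pass without day 4 replicate 1 or 3 or day 7 replicate 2 or 3. The count of 5 was 4 without day 4 replicate 2 and 2 or 3 without any other irradiated array, and the median was -0.10 without day 4 replicate 1. The mean over 8 adipocyte markers was 9.64, 7.33 and 8.10 at day 4 and 7.68, 8.22 and 6.96 at day 7.

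CCAAT, which is also part of sterol-regulated promoters, was in 13 of the 14 cholesterol synthesis promoters (92.9%), again against 36.1% of all. Matches are in capitals for Idi1 (chr13:8885476-8885605, plus strand), Lss (chr10:76531475-76531604, plus strand), the cyclase that closes the sterol rings and rose by 1.13 (probe set mean 0.61), and Msmo1 (chr8:64733579-64733708, minus strand).
Idi1: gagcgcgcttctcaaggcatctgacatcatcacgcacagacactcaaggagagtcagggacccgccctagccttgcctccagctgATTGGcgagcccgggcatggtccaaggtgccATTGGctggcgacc
Lss: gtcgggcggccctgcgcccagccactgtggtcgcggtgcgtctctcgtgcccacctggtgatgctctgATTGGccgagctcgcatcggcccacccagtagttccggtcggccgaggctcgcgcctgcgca
Msmo1: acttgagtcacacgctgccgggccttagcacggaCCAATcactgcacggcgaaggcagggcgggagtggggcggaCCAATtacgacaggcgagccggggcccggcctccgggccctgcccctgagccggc

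**Figure D3:**
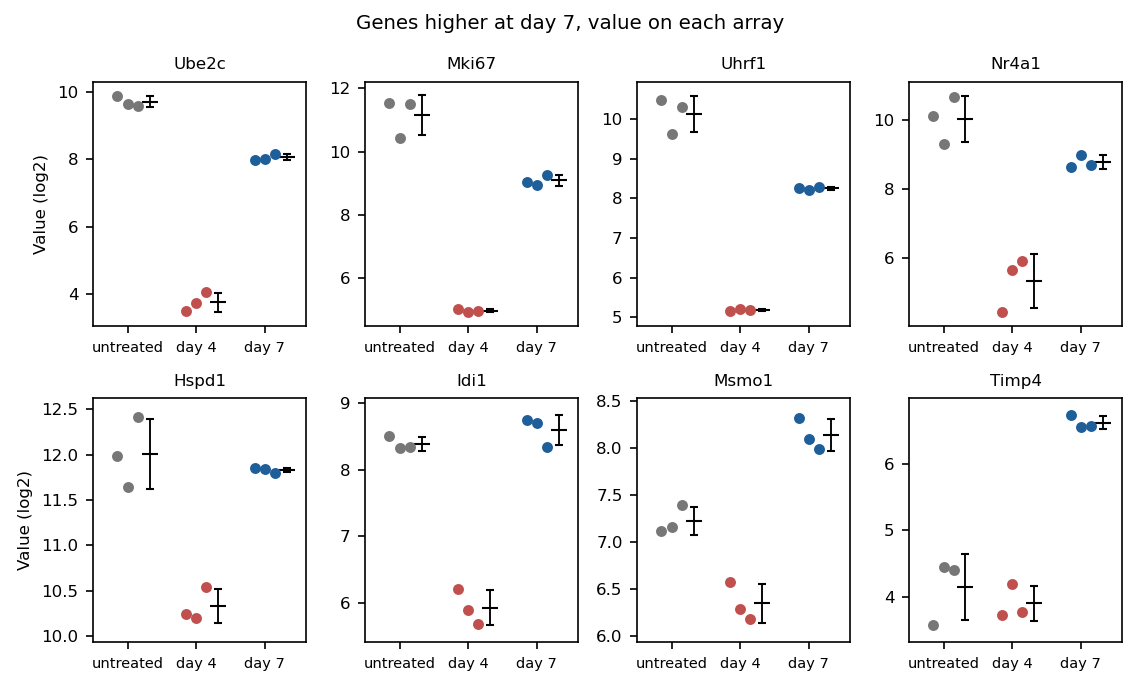
Log2 values on each of the 9 arrays for 8 genes that were higher at day 7 than at day 4, with group means and SD beside the points. Ube2c, Mki67 and Uhrf1 stayed below the untreated arrays at day 7, whereas Msmo1 and Timp4 lay above them. No day 4 point overlaps a day 7 point, which was required of the genes named as largest rises, among them Ube2c and Mki67.

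Proteasome and splicing genes rose by small amounts. Of 22 tested proteasome subunits 18 rose and none fell, with a median of 0.34, but the median was -0.28 under stromal centring, where none passed in either direction, and leaving out day 4 replicate 1 or day 7 replicate 2 left 10 of the 18. The largest of these was Psmc4, an ATPase of the regulatory particle, at 11.06, 11.02 and 10.67 and then 11.55, 11.82 and 11.77 (0.80, adjusted p = 0.0025). The core subunits Psma7 and Psma1 rose by 0.63 and 0.60, but Psma1 by 0.38 (limma adjusted p = 0.075) with its probe sets averaged and -0.01 under stromal centring. Of 19 spliceosome genes 13 rose and none fell (median 0.50, and -0.11 under stromal centring with none higher and 1 lower), among them Srsf3 with 1.01, Hnrnpd with 0.77 (probe set mean 0.35) and Hnrnpa2b1 with 0.72. The last did not pass when its probe sets were averaged (0.26, limma adjusted p = 0.124). Of 21 ribosome biogenesis genes 5 rose and 1 fell (28.6% called), and of 18 tRNA synthetases 3 rose and none fell (16.7%), against 27.3% of all tested genes. Their medians of 0.11 and 0.16 were -0.51 and -0.45 under stromal centring. The 3 tRNA synthetase rises were 1 or 2 with any 1 irradiated array left out. Ribosomal protein, respiratory chain and hypoxia lists had smaller shares called (6.25%, 8.70% and 5.88%). Of 16 ribosomal protein genes 1 fell (median -0.03), of 23 respiratory chain genes 2 rose (median 0.02; 1 rose without day 4 replicate 2 or day 7 replicate 2 or 3) and of 17 hypoxia targets 1 rose (3 without day 4 replicate 3), and the sign of these medians changed with the scaling.

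The p53 pathway, the main response to DNA damage, had more falls than rises, as did all tested genes (1921 lower, 1070 higher). The share called was 55.0% against 27.3% of all genes. The list's median of -0.31 turned to 0.15 under epithelial centring (4 higher, 1 lower). Of 20 tested p53 targets 3 rose and 8 fell, and the 8 became 5 without day 4 replicate 1, day 4 replicate 2 or day 7 replicate 1, and 4 without day 7 replicate 2. Ddit4l, an inhibitor of the growth kinase mTOR, fell by 1.35 from 8.91, 8.81 and 8.62 to 7.61, 7.28 and 7.39, still above the untreated 5.58 to 6.35. Zmat3, an RNA-binding p53 target, changed by -0.66 and was likewise above untreated. Ckap2, which is also a mitotic spindle protein, rose by 1.99; its 3 day 7 values are identical at 5.68, so its SE may be too small. Cdkn1a, the p21 inhibitor of the cell cycle, was at 10.68, 10.80 and 10.92 at day 4 and 10.39, 10.52 and 10.13 at day 7 and did not pass (-0.45, SE 0.19, adjusted p = 0.11), against 8.52 to 9.30 untreated. Among 16 cell cycle inhibitors 7 rose and 2 fell (median 0.22), and under stromal centring 2 were higher and 7 lower (median -0.39). Gadd45g and Gadd45b, stress sensors that respond like immediate early genes, rose by 1.46 and 1.05, and Cdkn2d, an inhibitor of cyclin D kinases, by 0.84. Cdkn1c, the imprinted inhibitor p57, fell by 1.03. The count of 2 became 1 without any 1 of the 6 irradiated arrays.

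The deepest falls were in secreted proteins of mucosal surfaces and the liver. Of 18 tested genes of mucosal secretion and defence 12 fell and none rose, with a median of -1.43 that stayed between -2.04 and -0.96 under the 4 scalings. The falls were 8 without day 4 replicate 1 or 2 or day 7 replicate 1 or 2, and 11 without day 7 replicate 3. With no filter on dim genes 8 fell. Saa3, an acute phase serum amyloid, was at 10.42, 10.42 and 10.30 at day 4 and at 6.58, 6.99 and 6.71 at day 7, a fall of 12.3-fold (SE 0.31 log2 units, adjusted p = 0.00011). Saa1 fell 10.8-fold from 7.79, 8.09 and 7.53 to 4.58, 4.15 and 4.36. On untreated arrays Saa3 was at 9.44 to 10.83 and Saa1 at 7.33 to 8.97. Lcn2, the iron-trapping antimicrobial lipocalin, was instead highest at day 4: 6.70, 7.58 and 6.54 untreated, 8.66, 8.62 and 8.05 at day 4 and 5.58, 5.63 and 5.69 at day 7. Scgb1a1, the airway secretoglobin, fell by 2.57 from 7.61, 7.94 and 7.52 to 4.16, 5.59 and 5.61.

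Large falls were also seen in genes outside that list and in no marker list. Ttr, the thyroid hormone carrier transthyretin, was at 6.99, 7.00 and 5.43 at day 4 and under the level of 4 on all day 7 arrays, at least 5.56-fold lower. Lypd8, which keeps bacteria off the gut wall, fell 11.8-fold, and Reg3b, an antibacterial lectin, fell 9.75-fold from 9.70, 9.39 and 8.68 to 6.45, 5.58 and 5.89. Klk1b16 (a kallikrein) fell 8.64-fold and 2210407C18Rik fell 7.79-fold. Aoc1, a histamine-degrading amine oxidase, was at least 4.77-fold lower, the lipoprotein component Apoc3 at least 4.66-fold and Bcl2l15 at least 3.65-fold. In all 8 of these genes day 4 replicate 3 and untreated replicate 3 were the lowest of their group.

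Medullary thymic epithelial cells are known to make proteins of other tissues, including gut and liver, for testing T cells against self. Lists of such antigens and of medullary markers also held more falls than rises with the deposited scaling. Of 10 tested tissue-restricted antigens 6 fell and none rose (median -1.48), and under epithelial centring 6 were still lower (median -1.02). Their mean was 6.96, 6.65 and 5.97 at day 4 and 4.95, 4.97 and 4.91 at day 7. Of 10 medullary epithelial markers 4 fell and none rose (median -0.76), and under epithelial centring 1 was higher and 1 lower (median -0.30). None of the 4 passed without day 4 replicate 1 or 2 or day 7 replicate 2 or 3. Of the 4 falls 1 passed without day 7 replicate 1 and 3 passed without day 4 replicate 3. Of 14 cortical markers 4 rose and 2 fell (median 0.20, and -0.42 under stromal centring). Their part in the fall of secreted proteins was not tested.

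Other large falls had a different course. Ces1c, a secreted carboxylesterase, was at 4.01, 3.90 and 3.60 on untreated arrays, at 7.05, 6.63 and 6.39 at day 4 and at 4.01, 3.96 and 3.83 at day 7 (-2.76, SE 0.17, adjusted p = 1.4e-05). Cyp2e1, an alcohol-oxidising cytochrome also abundant in fat, was at 2.85, 3.27 and 2.85, then 8.42, 6.80 and 6.33, then 4.21, 3.99 and 4.97. At day 7 Ces1c overlapped its untreated values, and Cyp2e1 was still above all of them. The chemokine Ccl8, which attracts monocytes, was also highest at day 4, and went from 7.85, 7.92 and 8.37 at day 4 to 5.23, 5.31 and 5.34 at day 7 (6.74-fold), below its untreated values of 5.53 to 6.92. The adipocyte marker mean was 5.94, 6.22 and 5.82 on untreated arrays, 9.64, 7.33 and 8.10 at day 4 and 7.68, 8.22 and 6.96 at day 7. By group average both this mean (5.99, 8.36 and 7.62) and Cyp2e1 (2.99, 7.18 and 4.39) were lowest untreated and highest at day 4. Both were highest on day 4 replicate 1. On the other day 4 arrays, and among the day 7 arrays, their orders were opposite. The part of fat cells in the Cyp2e1 values was not tested.

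**Figure D4:**
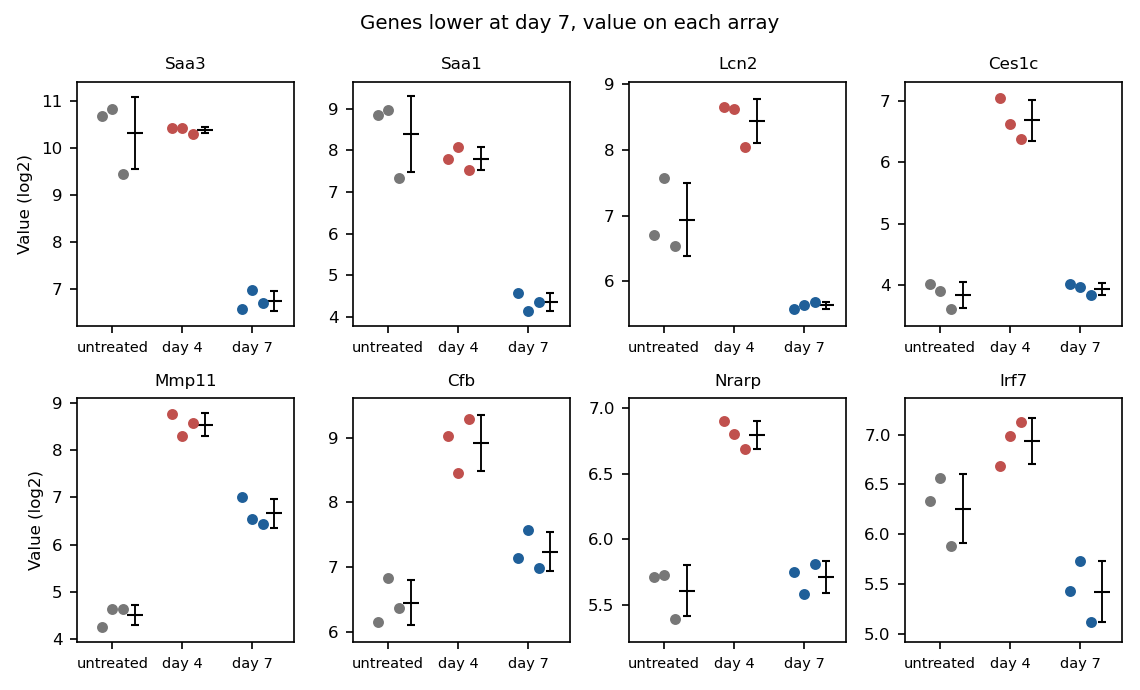
Log2 values on each of the 9 arrays for 8 genes that were lower at day 7 than at day 4, with group means and SD beside the points. Saa3 and Saa1 were high on untreated arrays and at day 4, whereas Ces1c, Mmp11, Cfb and Nrarp were highest at day 4. Saa3, Saa1, Lcn2 and Irf7 lay below every untreated array at day 7.

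Complement proteins mark and lyse microbes and damaged cells. Of 8 tested complement genes 6 fell and none rose, with a median of -0.68. Under epithelial centring 1 was higher and 1 lower (median -0.22). The count of falls was 2 without day 4 replicate 1 or 3 or day 7 replicate 2 or 3, and 3 without day 7 replicate 1. Cfb, factor B of the alternative pathway, was at 6.15, 6.83 and 6.36 untreated, 9.02, 8.45 and 9.29 at day 4 and 7.14, 7.57 and 6.99 at day 7 (-1.69, SE 0.25, adjusted p = 0.0022). The classical pathway proteases C1ra and C1s1 changed by -0.93 and -0.72. C1s1 did not pass without day 4 replicate 1 or 3 or day 7 replicate 2 or 3.

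Of 21 tested matrix proteases and inhibitors 4 rose and 10 fell, with a median of -0.43 that was 0.03 under epithelial centring (4 higher, 3 lower). Mmp11, a stromal protease of tissue remodelling, was at 4.26, 4.63 and 4.63 untreated, 8.76, 8.29 and 8.56 at day 4 and 7.00, 6.54 and 6.44 at day 7 (adjusted p = 0.00023). Mmp3, stromelysin, fell by 1.57 from 9.68 ± 0.33 (SD, n = 3) to 8.11 ± 0.07. The protease inhibitors Timp4 and Timp3 went the other way. Timp4 was at 3.57, 4.45 and 4.41 untreated, 3.73, 4.20 and 3.77 at day 4 and 6.74, 6.56 and 6.58 at day 7 (6.62-fold, adjusted p = 0.0001; difference 2.73, probe set mean 1.67), and Timp3, chosen after its value was seen, rose by 0.77. Without day 4 replicate 1 or 2 or day 7 replicate 1 or 2 only 2 of the 4 rises passed, and without day 4 replicate 3 or day 7 replicate 3 only 6 of the 10 falls did. The fibroblast marker mean was 10.99 to 11.52 at day 4 and 10.58 to 10.92 at day 7.

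Of 23 tested interferon-stimulated genes 9 fell and 1 rose, with a median of -0.30 that was 0.16 under epithelial centring (1 higher, 2 lower). The falls were 5 without day 4 replicate 2 or day 7 replicate 3. Irf7, the factor that amplifies interferon production, was at 6.68, 6.99 and 7.13 at day 4 and 5.43, 5.73 and 5.12 at day 7 (-1.51, SE 0.21, adjusted p = 0.0017). Mx1, an antiviral GTPase, fell by 1.15. The 1 that rose was Cxcl10, a T cell-attracting chemokine, from 9.24, 9.26 and 9.27 to 10.30, 10.59 and 10.26 (1.13, SE 0.15). Of 18 chemokine genes 3 rose and 6 fell (median -0.46, and 0.01 under epithelial centring with 6 higher and 5 lower), and the falls were 3 without day 4 replicate 1. Ccl5, made by T cells and macrophages, fell by 2.43. Of 25 lysosome and autophagy genes 9 fell and none rose (median -0.31, and 0.15 under epithelial centring with 2 higher and 1 lower), among them cathepsin A (Ctsa, -0.83, probe set mean -0.41), the autophagy kinase Ulk1 (-0.96, probe set mean -0.48) and hexosaminidase A (Hexa, -0.87).

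The Notch list holds receptors, ligands, modifiers and targets. Of 16 tested genes 9 fell and 1 rose (2 without day 4 replicate 2), with a median of -0.61. Under epithelial centring 3 were higher and 2 lower (median -0.15). Notch receptors on one cell are activated by Jagged or Delta ligands on its neighbour. The target Nrarp, a feedback inhibitor, was at 6.90, 6.80 and 6.69 at day 4 and 5.75, 5.58 and 5.81 at day 7 (-1.08, SE 0.12, adjusted p = 0.00049; probe set mean -0.52), against 5.39 to 5.73 untreated. Hes1, the classical target repressor, fell from 8.32, 8.25 and 8.36 to 7.61, 7.56 and 7.59, and Rfng, which adds sugars to the receptors, changed by -0.99 (probe set mean -0.54). The 1 member that rose, Notch4, is a receptor of endothelial cells. It was under the level of 4 on all day 4 arrays and at 4.94, 5.31 and 4.69 at day 7, at least 1.97-fold higher. With probe sets averaged no member of the list rose and 8 fell.

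The medians of the FGF, BMP and TGF-beta, interleukin and angiogenic lists changed sign with the scaling. Their shares called were 29.4%, 30.3%, 30.0% and 33.3%, near the 27.3% of all genes. In the FGF list 4 of 17 rose and 1 fell (median -0.06, and 0.40 under epithelial centring with 5 higher and none lower). With probe sets averaged 1 rose and 1 fell. Etv5, a transcription factor that rises with FGF and MAP kinase signals, went from 5.78, 5.68 and 5.95 to 6.80, 7.23 and 6.85 (2.23-fold). With its probe sets averaged Etv5 was too dim to be tested. The pathway inhibitor Spred2 rose by 0.46, although by 0.05 when probe sets were averaged (limma adjusted p = 0.766). Spred2 was at -0.15 under stromal centring. The receptor Fgfr1 changed by -0.99 (probe set mean -0.63). Without day 4 replicate 2 or day 7 replicate 2 only 2 rises passed, and the falls were 2 without day 4 replicate 2 or 3. In the BMP and TGF-beta list 5 of 33 rose and 5 fell (median -0.15, and 0.32 under epithelial centring with 11 higher and 2 lower). Id1, the best known target of BMP signals, rose from 7.44, 6.67 and 7.19 to 8.28, 8.38 and 8.31 (1.23, SE 0.18, adjusted p = 0.0022). The activin subunit Inhbb changed by -1.12 (probe set mean -0.47) and the processing protease Bmp1 by -1.19 (probe set mean -0.53). The ligand Bmp4 did not pass (-0.05, SE 0.25), with 7.78, 7.51 and 7.94 at day 4 and 7.79, 7.57 and 7.70 at day 7, above its untreated values of 5.69 to 6.83. The 5 rises were 3 without day 4 replicate 2 or 3, and the 5 falls were 3 without day 4 replicate 1 or 3 or day 7 replicate 2.

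Among 20 tested interleukin and TNF family genes 2 rose and 4 fell (median -0.24, and 0.23 under epithelial centring with 3 higher and none lower). Tnfrsf12a, the receptor of the cytokine TWEAK, rose by 1.27, and the stem cell factor Kitl, named after its value was seen, by 0.66 (limma adjusted p = 0.052 with probe sets averaged). The oncostatin receptor Osmr changed by -0.65 (probe set mean -0.42) and the B cell factor Tnfsf13b by -0.94 (probe set mean -0.34). Il7, the cytokine on which thymocytes depend, was at 11.76, 11.83 and 11.62 at day 4 and 11.23, 11.11 and 11.21 at day 7 (-0.55, SE 0.09, adjusted p = 0.003), still above 10.24 to 10.38 untreated. Il7 too was named after its value was seen. Of 18 angiogenic growth factor genes 3 rose and 3 fell (median 0.18, and -0.44 under stromal centring with 2 higher and 8 lower). Esm1, a proteoglycan of sprouting endothelium, rose from 3.88, 3.37 and 4.48 to 6.50, 6.73 and 6.14 (5.84-fold, adjusted p = 0.00048), Apln, the ligand apelin, by 0.72 and the VEGF co-receptor Nrp1 by 0.93. Nrp1 did not pass with its probe sets averaged (0.53, limma adjusted p = 0.146). The endothelial marker mean was 5.69 to 6.35 on the day 4 arrays and 7.80 to 7.90 on the day 7 arrays, and its part in these rises was not tested. Pecam1, the vessel marker CD31, was at least 2.84-fold higher at day 7. The epithelial marker Epcam (-0.29, adjusted p = 0.295) and the fibroblast marker Pdgfra (-0.61, adjusted p = 0.066) did not pass.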

How the data were processed

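Expression was measured on 9 Affymetrix mouse arrays with 45101 probe sets each, 3 per group. The deposited values are log2 expression values (the base is inferred from their range, with a floor of 2.27) and the submitters' processing notes name GCRMA for them. Which version was run, and how, is not stated in those notes or the labels. Probe sets with 1 gene symbol (34945) were kept, and 932 with several symbols and 9160 with none were named for no gene. Each of 18193 genes was represented by its probe set with the highest mean. The 10937 genes at or above a log2 value of 4 on 3 or more of the 9 arrays entered the test with limma 3.58.1 (R 4.3.3), which fitted all 9 arrays with the group as the only term, and p-values were adjusted by Benjamini-Hochberg over all of them. A gene under 4 on all arrays of a group was given an "at least" fold, the mean of the other group over 4. The procedure was tested on simulated data.

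Arrays correlated at 0.9952 to 0.9963 within day 4, 0.9960 to 0.9963 within day 7 and 0.9839 to 0.9866 between these days, and having only 3 per group limits the precision. Genes were named as the 15 largest rises and 15 largest falls outside the marker lists, per list the 3 members lowest in adjusted p, and a few markers. The largest rises and falls had to pass the threshold and have day 4 and day 7 arrays that did not overlap. They also had to be at or above 4 on all 3 arrays of the higher group. For these genes the lack of overlap was therefore set by the choice. Atf3, Bmp4, Cdc20, Dnajb1, Ebp, Fosb, Hspb1, Il7, Kitl, Lss, Notch4, Nr4a1, Plk1, Srebf2, Tet2, Timp3 and Ttk fall outside this rule and were chosen after their values were seen. The members and lists were chosen with earlier results of these data known. Alternatives changed the filter, the probe set rule, the model, the scaling and the arrays included. Promoter sequences are from RefSeq (GRCm38.p6).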

Additional observations from a re-analysis of the deposited data

How the results depend on the processing

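Scaling changed the results most. Centring on the 4 stromal lists gave 8043 called genes (362 higher, 7681 lower) and list medians of mitosis 2.08, DNA replication 0.40, immediate early 1.06, heat shock 0.49, cholesterol 0.39, proteasome -0.28, spliceosome -0.11, mucosal secretory -2.04, lysosome -0.93, matrix proteases -1.05, complement -1.30, interferon -0.92, Notch -1.23, p53 -0.92, histones -0.28, fatty acid -0.85 and chemokines -1.07, which turned the proteasome, spliceosome and histone lists, and Psma1 (-0.01) and Spred2 (-0.15). Centring on epithelial markers gave 2209 higher and 303 lower genes and medians of mitosis 3.16, DNA replication 1.48, immediate early 2.14, heat shock 1.57, cholesterol 1.47, proteasome 0.80, spliceosome 0.96, mucosal secretory -0.96, lysosome 0.15, matrix proteases 0.03, complement -0.22, interferon 0.16, Notch -0.15, p53 0.15, histones 0.79, fatty acid 0.23 and chemokines 0.01, which turned the lysosome, protease, interferon, p53, fatty acid and chemokine lists. Centring on the tested genes gave DNA replication 1.08, proteasome 0.41, spliceosome 0.57, lysosome -0.24, interferon -0.23, p53 -0.24 and histones 0.40, and quantile normalization DNA replication 1.06 and spliceosome 0.58. With probe sets averaged the medians were mitosis 1.99, DNA replication 0.79, cholesterol 0.65, spliceosome 0.36, lysosome -0.36, matrix proteases -0.24, Notch -0.46, p53 -0.20 and histones 0.17, and with no filter DNA replication 0.96, cholesterol 0.85, Notch -0.30 and p53 -0.27, with 1280 genes lower. Every probe set on its own gave 4661 calls (1934 higher), and array weights 2992 genes lower. The replicate numbers do not pair the arrays: deviations of same-numbered day 4 and day 7 arrays correlated at 0.01, -0.04 and -0.12, and with a replicate block 2614 genes were called, 949 higher and 1665 lower. Leaving out 1 array gave 1760 to 3464 called genes, 750 to 1214 higher and 1010 to 2273 lower, and medians of 0.94 to 1.04 for DNA replication, 0.45 to 0.59 for spliceosome, -0.38 to -0.30 for lysosome, -0.58 to -0.22 for matrix proteases, -0.33 to -0.29 for p53, 0.28 to 0.38 for histones. With the middle probe sets in place of the 5-prime ones the control differences were -0.30 for Actb and -0.24 for Gapdh.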

Other observations

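The probe sets of a gene did not always move together. Of 630 genes with at least 2 probe sets past the threshold, 20 (3.17%) had called probe sets of opposite direction. One probe set of Malat1, a nuclear long noncoding RNA, was at 14.85, 14.62 and 14.55 at day 4 and at 14.11, 13.84 and 14.36 at day 7 (limma difference -0.57, adjusted p = 0.029 over all probe sets). Another was at 6.23, 6.23 and 6.30 and then at 8.87, 8.55 and 8.55 (2.40, adjusted p = 4.9e-05). For Zfp207, a zinc finger protein of the spindle, the values were -0.90 and 0.52.

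Some genes not named in the report stood at day 7 above all day 4 and all untreated arrays, and were picked for this after their values were seen, so they carry no test here. Rbp7, a retinol-binding protein, was at 4.23, 4.13 and 4.95 untreated, 4.09, 4.05 and 4.44 at day 4 and 7.47, 7.73 and 7.33 at day 7. Myl9, a myosin light chain of smooth muscle, was at 7.02, 7.54 and 7.59, then 6.17, 5.35 and 5.96, then 8.63, 8.84 and 10.39.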
